A study of Mus musculus with 6 samples.

Results

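Calcium/calmodulin-dependent protein kinase II (CaMKII) and its closest postsynaptic partners were followed in cultured mouse cortex through 6 genes: Camk2a, Camk2b, Camk2d and Camk2g, which encode the 4 kinase subunits, Nrgn, which encodes neurogranin, and Camkv, which encodes a CaM kinase-like protein of vesicles. Every probe whose gene name in the array files is one of these symbols was taken, which gave 18 of the 56605 probes that are not controls. Primary cultures were made from the cerebral cortex of C57/B6 embryos at embryonic day 16 and grown on poly-D-lysine in Neurobasal medium with B27 plus. There were 3 control cultures without irradiation and 3 cultures irradiated at 3.1 THz, a terahertz frequency below that of visible light. Irradiation lasted 3 hours, once a day, on days 5 to 9 of culture. RNA of both groups was taken at day 12, and 0.2 µg of it was labelled with Cy3 for a 1-colour Agilent array per culture. Both groups share the strain and the medium, and the labels name no genetic change. The labels call the samples neuron cultures and give the numbers 1 to 3 in each group without saying whether these were separate dissections, so p-values cover only how these samples differ from one another, part of which may be technical.

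CaMKII is a large holoenzyme of many subunits that sits in dendritic spines. Calcium that enters through NMDA receptors loads calmodulin, calmodulin opens the kinase, and phosphorylation of one subunit by its neighbour then keeps it active after calcium has fallen. The alpha and beta subunits are the main forms of forebrain neurons, while delta and gamma are found in many tissues. Neurogranin is a small postsynaptic protein that holds calmodulin at low calcium, and Camkv resembles a CaM kinase but is held to lack kinase activity.

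Levels are given as log2 of the processed signal minus the log2 of the array's own 75th percentile, so a level of 0 is the 75th percentile of that array. Differences are irradiated minus control on the same log2 scale. Probes that Feature Extraction flagged as well above background on 3 or more of the 6 arrays were tested, and there were 40552. Of the 18 probes of the 6 genes, 16 passed and 2 did not, and each gene kept at least 1 probe. For each gene the brightest probe, by its mean of all 6 arrays, is called the main probe. In a culture, fewer cells of a type and less RNA per cell cannot be told apart.

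The probes are 60-base oligonucleotides, and the direction of a gene could depend on which of them was read. A 30-base stretch of 7 of them is shown, 5′ to 3′ as in the array files, for the main probe of 5 genes and for the other tested Camk2b probes, because the 3 probes of Camk2b differed in sign. Capitals in the Camkv probe mark the hexamer AATAAA, a polyadenylation signal. Capitals in the Camk2d probe mark the second copy of a 20-base unit that stands in this probe as a direct repeat.
Camk2b main probe, bases 16 to 45: ggtgtacaaaacttattcttattttgttct
Camk2b, the second probe, bases 16 to 45: aacctggtcgaagggatggatttccacaga
Camk2b, the third probe, bases 16 to 45: atgtgtgaacatgcatacccgcatggacaa
Camk2d main probe, bases 17 to 46: tcatcttatcATGTGACACGTCATCTTATC
Camk2g, bases 16 to 45: tggtagtcccttcatagctttgttacaatg
Nrgn, bases 16 to 45: ctttttagctcttcagtctaacgtggtctc
Camkv main probe, bases 16 to 45: ctactgaacctggcaAATAAAcgtcaccct
AATAAA was searched on the printed strand only. It was in 9.77% of all 56605 probes and in 1 of the 18. A direct repeat of at least 20 bases was in 0.0512% of all probes and in 1 of the 18. The share of G and C ran from 20% to 60% in the 18 probes, with a median of 41.7% over all probes.

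All arrays shared 1 slide and 1 scan. Their 75th percentile of the processed signal ran from 320 to 708 in controls and from 635 to 892 in irradiated cultures, and 64.9% to 74.7% of spots were well above background. Control 1 stood apart on the first principal component, at -148 against 11.5 to 62.0 for the other arrays. Neuronal markers were present (4 of 4 measured, 3 of them below 0 in difference), with mean levels of 5.32, 5.25 and 5.42 in controls 1 to 3 and 4.90, 4.94 and 5.40 in irradiated cultures 1 to 3. In this mean irradiated 1 and 2 lay below the controls and irradiated 3 within their range, the layout also found for Camk2a, Camk2b, Nrgn and Camkv. Of the 4 markers, Tubb3 (difference -0.67) and Rbfox3 (-0.30) had this layout, while Map2 (0.002) and Snap25 (-0.03) did not. The part of these markers in those results was not tested. Markers of excitatory neurons (6 of 6, 1.54 to 2.08 and 1.49 to 2.01) and of astrocytes (6 of 6, 3.25 to 4.79 and 3.17 to 4.66) were also present. In the mean of the excitatory markers irradiated 2, at 1.73, lay within the control range. Astrocyte, microglial and oligodendrocyte markers stood highest on the arrays numbered 1, while those of oligodendrocyte precursors did not. The 6 microglial markers averaged 0.57 and 1.09 on the arrays numbered 1 and between -1.78 and -1.11 on the others. Astrocyte markers averaged 4.79, 3.83 and 3.25 in controls 1 to 3 and 4.66, 3.70 and 3.17 in irradiated cultures 1 to 3. Those of excitatory neurons averaged 1.54, 1.78 and 2.08, and 1.49, 1.73 and 2.01. The order over the array numbers was thus the same in both groups, which did not hold for neuron and oligodendrocyte precursor markers.

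The first question was whether these genes differed between irradiated and control cultures. For the 6 genes no probe had an adjusted p under 0.05 (limma with Benjamini-Hochberg adjustment over 40552 probes), and none of the 40552 did (0%); the smallest adjusted p was 0.520 both among all probes and among the 16. At an unadjusted p under 0.05, 0 of the 16 were lower, where 4.99% of all tested probes were, and 2 were higher, where 4.02% were. Both were dim probes, 1 of Camk2b and 1 of Camk2d, that were well above background on all 3 irradiated arrays but on only 0 and 1 of the 3 controls. They passed the filter through the arrays where they are high, so their count is not read against the share of all probes. Of the 16 differences, 8 were below 0 and 8 above, with a median of 0.01, while 55.9% of all tested probes were below 0 and their median was -0.05. The balance of all probes at unadjusted p under 0.05 was 55.4% lower, and 91.1% lower with normexp background correction, which moved the median of all probes to -0.20. That correction adds an offset of 50 before scaling, which draws dim probes towards the same signal on every array. Their sign can then follow the 75th percentile, which was mostly higher on irradiated arrays. Nothing is therefore read from the sign of dim probes with normexp correction.

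**Figure D1:**
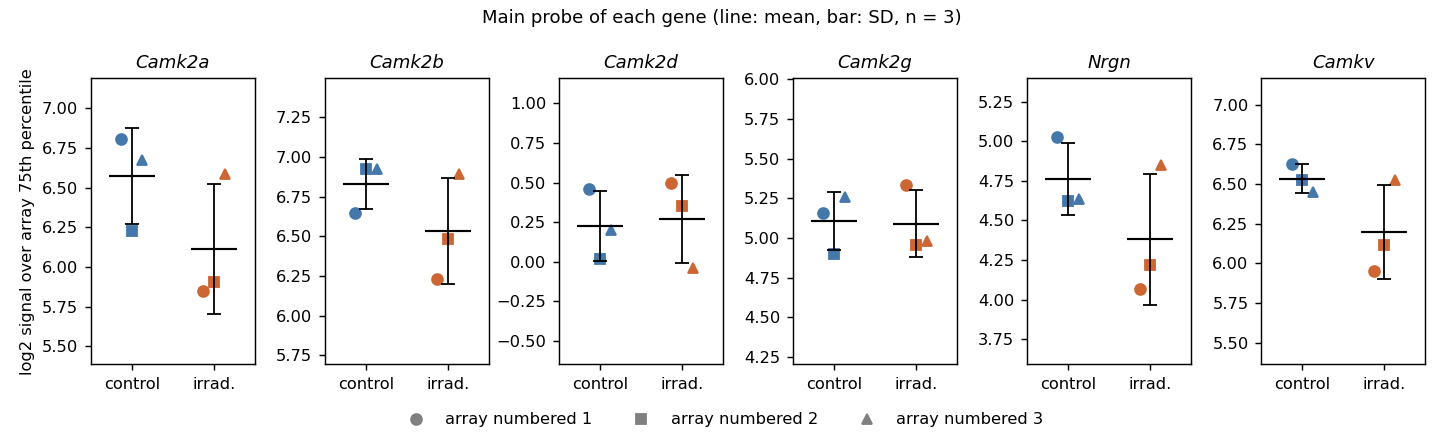
Level of the main probe of each gene (y axis, log2 over the array's 75th percentile) on the 3 control and 3 irradiated arrays; symbols give the array number, the line the mean and the bar the SD. For Camk2a, Camk2b, Nrgn and Camkv irradiated arrays 1 and 2 lie low and irradiated 3 lies among the controls, while the groups of Camk2d and Camk2g overlap.

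Camk2a, the alpha subunit, was read by its main probe (A_52_P189707) at chromosome 18, 61147519 to 61147578 on the plus strand of build mm9. Its level was 6.81, 6.23 and 6.67 in controls 1 to 3, and 5.85, 5.90 and 6.58 in irradiated cultures 1 to 3. Irradiated 1 and 2 lay below every control, and irradiated 3 lay within the control range. The difference was -0.46 (standard error 0.28, 95% interval -1.12 to 0.20, n = 3 each), with a limma adjusted p of 0.558. Without irradiated 3 it was -0.70, with an adjusted p of 0.494, and without both arrays numbered 1 it was -0.21.

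A second Camk2a probe (A_55_P2149209), 3061 bases upstream of the main one on the same strand, differed by -0.12 (95% interval -0.70 to 0.47). The control level was 1.58 ± 0.38 and the irradiated level 1.46 ± 0.15 (SD, n = 3 each), and the groups overlapped. The third probe (A_55_P2718182), 44593 bases upstream, was dim at -4.63 ± 0.84 and -3.99 ± 0.11 and differed by 0.65, with an interval from -0.30 to 1.59. The 3 probes of Camk2a therefore did not share a direction on this scale, the interval of each held 0, and the third stood at -0.20 with normexp correction. No annotation of exons in mm9 was used, so the part of the transcript each probe reads is not given.

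Camk2b, the beta subunit, which also binds actin filaments, was read by a main probe (A_55_P2109377) at chromosome 11, 5869675 to 5869734 on the minus strand, printed as 10 spots on each array. It measured 6.65, 6.93 and 6.92 in controls 1 to 3 and 6.23, 6.48 and 6.89 in irradiated cultures 1 to 3. As with Camk2a, irradiated 1 and 2 lay below the controls and irradiated 3 among them. The difference was -0.30 (standard error 0.24, 95% interval -0.86 to 0.27, limma adjusted p 0.650). It was -0.14 without irradiated 1 and -0.48 without irradiated 3. The SD over the spots of this probe on an array ran from 0.0089 to 0.036, while the SD between cultures was 0.16 in controls and 0.34 in irradiated cultures.

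The second Camk2b probe (A_55_P2150578), at 5872636 to 5872695 and 2961 bases upstream, ran the other way. It measured 0.29, 1.06 and 1.47 in controls and 1.70, 1.85 and 1.03 in irradiated cultures. Irradiated 1 and 2 were above every control and irradiated 3 was not. Its difference was 0.59 (95% interval -0.26 to 1.44, adjusted p 0.558). The third probe (A_55_P2713350), 42226 bases upstream, measured -7.24, -6.62 and -6.04 in controls and -5.72, -5.19 and -5.24 in irradiated cultures, a fitted difference of 1.25 (95% interval 0.46 to 2.04, adjusted p 0.520). It was well above background on 0 of 3 control and 3 of 3 irradiated arrays, so it entered the test through the irradiated arrays alone, and the control values are bounds. Against the lowest signals called well above background on the control arrays, which averaged -5.37 for this probe, no fold could be given, and with normexp correction the difference was -0.40. The fourth probe (A_51_P376776) was well above background on no array.

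Camk2d, the delta subunit, had 6 probes on chromosome 3, of which 5 were tested. Its main probe (A_52_P188261, 126545798 to 126545857, plus strand) measured 0.46, 0.02 and 0.20 in controls and 0.50, 0.35 and -0.04 in irradiated cultures. The groups overlapped over most of their range. The difference was 0.05 (95% interval -0.51 to 0.60, adjusted p 0.963), so a rise or fall of more than about 0.6 lies outside the interval. The 3′-most probe (A_55_P2860117) differed by 0.12, and a probe 5698 bases upstream of that one (A_55_P1978830) by 0.03. A probe 61351 bases upstream of the 3′-most one (A_55_P2719445) differed by 0.39, with an interval from -0.49 to 1.27.

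The remaining tested Camk2d probe (A_55_P1955172) was dim and measured -5.37, -5.20 and -4.65 in controls and -4.08, -4.40 and -4.56 in irradiated cultures. All 3 irradiated values lay above the controls, although the gap between irradiated 3 and control 3 was small. It was well above background on 1 of 3 control and 3 of 3 irradiated arrays. The fitted difference was 0.72 (95% interval 0.11 to 1.34, limma adjusted p 0.520), and -0.25 with normexp background correction. Non-overlap in this direction was found for this probe and the third Camk2b probe (5.77% of all tested probes), and nothing is read from that count, since both passed the filter through the irradiated arrays. In the other direction it was found for 0 of the 16, against 9.71% of all. Leaving out the probes not above background on all 6 arrays left 14, of which 0 had an unadjusted p under 0.05, against 9.41% of all probes so filtered.

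Camk2g, the gamma subunit, which can carry calmodulin towards the nucleus, had 1 probe (A_55_P2020341) at chromosome 14, 21554122 to 21554181 on the minus strand. It measured 5.16, 4.90 and 5.26 in controls and 5.33, 4.95 and 4.98 in irradiated cultures. Irradiated 1 was the highest of the 6 and control 2 the lowest. The difference was -0.02 (95% interval -0.53 to 0.49, adjusted p 0.985).

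Nrgn, encoding neurogranin, had 1 probe (A_55_P2172470) at chromosome 9, 37352694 to 37352753 on the minus strand. It measured 5.03, 4.62 and 4.63 in controls and 4.07, 4.22 and 4.85 in irradiated cultures. Irradiated 1 and 2 were the lowest of the 6, and irradiated 3 exceeded controls 2 and 3. The difference was -0.38 (standard error 0.27, 95% interval -1.02 to 0.26, adjusted p 0.605). Without irradiated 3 it was -0.62, with an adjusted p of 0.494. It was -0.22 without irradiated 1, -0.25 without control 1 and -0.092 without both arrays numbered 1.

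Camkv had 3 probes on chromosome 9, all lower in the mean of irradiated cultures as scaled here, though the main one was not after quantile normalisation. The main one (A_55_P2097340, 107851962 to 107852021, plus strand) measured 6.63, 6.52 and 6.45 in controls and 5.95, 6.12 and 6.52 in irradiated cultures, again with only irradiated 3 in the control range. Its difference was -0.34 (standard error 0.22, 95% interval -0.86 to 0.19, adjusted p 0.581). It was -0.21 without irradiated 1 and -0.50 without irradiated 3. The other 2 probes (A_52_P497208 and A_51_P454913) differed by -0.18 and -0.27, and both intervals held 0.

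**Figure D2:**
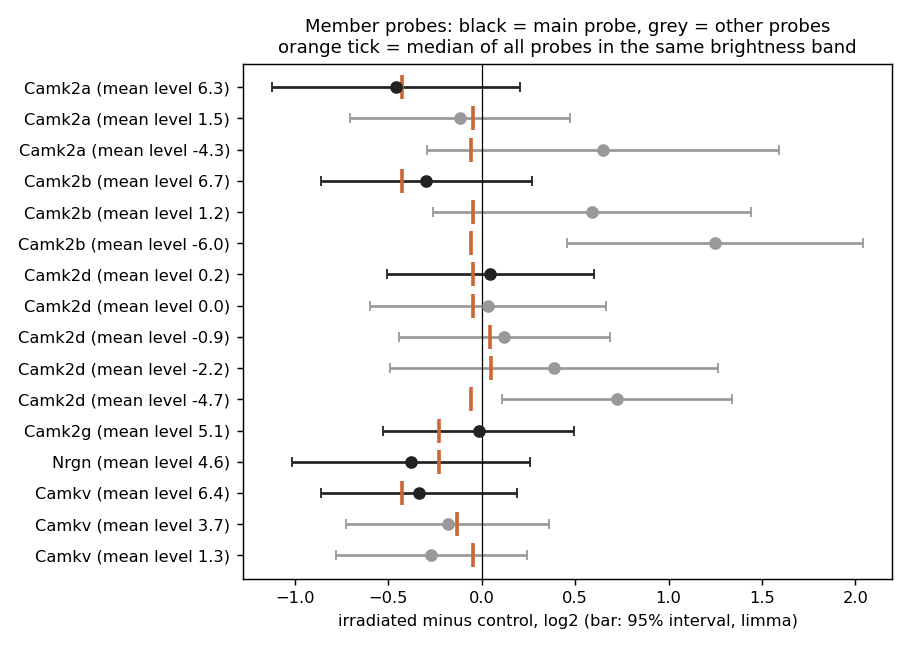
Difference of each of the 16 tested probes (x axis, irradiated minus control, log2; bar, 95% interval from limma), with black for main probes and grey for the others; the orange tick is the median of all tested probes of like brightness. The main probes of Camk2a, Camk2b, Nrgn and Camkv lie below 0 near their ticks, and only the intervals of 2 dim probes, of Camk2b and Camk2d, lie above 0. These 2 passed the filter through the irradiated arrays. They stood below 0 with normexp correction, whose offset alone can turn probes so dim, so nothing is read from that turn.

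The differences of these probes varied with their brightness, and at mean levels over 0 so did those of all probes. All 5 tested probes with a mean level over 4 were below 0, and 8 of the 11 with a mean level under 4 were above 0. Over all tested probes, the median difference was -0.43 at a mean level over 6 (752 probes, 98.8% below 0) and -0.23 between 4 and 6 (2168 probes, 88.8% below 0). It was -0.05 between 0 and 2 (6482 probes) and 0.05 between -4 and -2 (9431 probes). Under -4 it was -0.06 (9153 probes, 53.2% below 0), while the 3 dim probes of Camk2a, Camk2d and Camk2b in that band stood at 0.65, 0.72 and 1.25. With normexp correction these 3 stood at -0.20, -0.25 and -0.40, which is not read, since its offset alone can turn probes so dim. The Camk2d and Camk2b probes passed the filter through the irradiated arrays. They and the count of 8 that includes them are therefore not read against all probes. Camk2a, at -0.46, stood at -0.03 relative to the median of its brightness band, while Camk2b, at -0.30, and Camkv, at -0.34, lay nearer to 0 than that median. Nrgn, at -0.38, lay below the -0.23 of its band and Camk2g, at -0.02, above it. Among the 6 main probes, 5 were below 0 and 2 were below the median of their band.

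**Figure D3:**
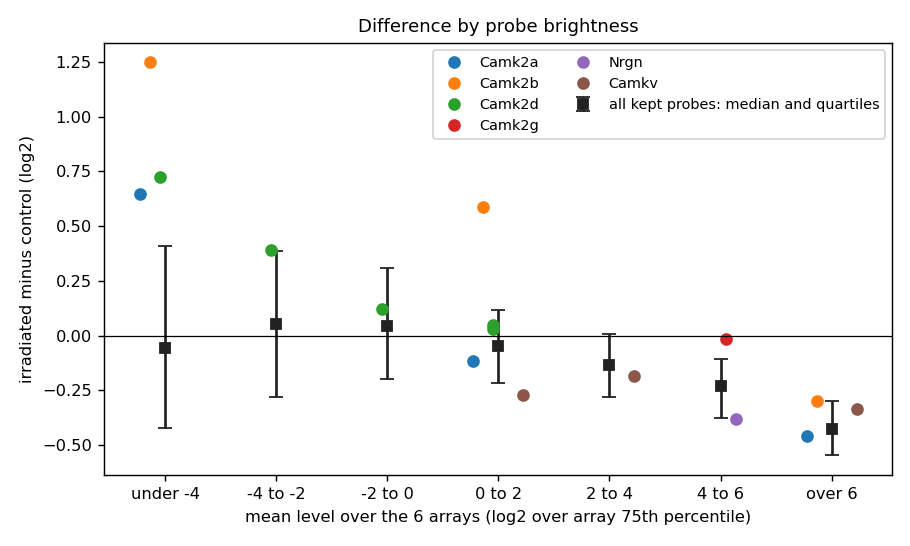
Difference (y axis, irradiated minus control, log2) against mean level over the 6 arrays (x axis, bands of log2 level over the 75th percentile); squares and bars are the median and quartiles of all tested probes, coloured points the probes of the 6 genes. The median of all probes falls to -0.43 in the brightest band, where the main probes of Camk2a, Camk2b and Camkv stand.

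The signal before scaling shows the same arrays from the other side. The processed signal of Camk2a was 35846, 34890 and 72301 in controls and 48490, 53334 and 60937 in irradiated cultures, with no order by group. That of Camkv was 31656, 42742 and 61928 in controls and 52006, 61866 and 58399 in irradiated cultures. The 75th percentile was highest on irradiated 1 and 2, at 841 and 892, the arrays on which the scaled Camk2a, Camk2b, Nrgn and Camkv were lowest, and irradiated 3 stood at 635, between controls 2 and 3. After quantile normalisation, which gives all arrays the same distribution, Camk2a differed by -0.07, Camk2b by 0.12, Nrgn by -0.16, Camkv by 0.07 and Camk2g by 0.24. The sign of the main probes of Camk2b, Camkv and Camk2g thus turned with the scaling. The part of array signal strength in these differences was not tested.

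Each main probe was also set against that of Camk2a on the same array. A single scaling factor per array cancels in such a ratio, while shifts that differ with brightness do not. Only the change of such a ratio between arrays is read, since its level depends on the probes. The log2 ratio of Camk2b to Camk2a was -0.16, 0.70 and 0.25 in controls and 0.38, 0.58 and 0.31 in irradiated cultures, a change of 0.16 (exact two-sided permutation test p = 0.6). That of Nrgn was -1.78, -1.61 and -2.04 in controls and -1.78, -1.68 and -1.73 in irradiated cultures, with the 3 irradiated ratios inside the range of the controls, and a change of 0.08 (exact permutation p = 0.8). Camkv to Camk2a changed by 0.12 (exact permutation p = 0.6). Camk2g to Camk2a was -1.65, -1.33 and -1.41 in controls and -0.52, -0.95 and -1.61 in irradiated cultures, a change of 0.44 (exact permutation p = 0.3), with irradiated 1 and 2 above the controls and irradiated 3 not. Camk2d to Camk2a changed by 0.50 (exact permutation p = 0.4), again with irradiated 1 and 2 above the controls. This change was 0.13 after quantile normalisation, and with one array left out it ran from 0.26, without irradiated 1, to 0.90, without irradiated 3. For Camk2g the same omissions gave 0.19 and 0.73, and leaving out both arrays numbered 1 gave 0.095. Over these 5 ratios the Benjamini-Hochberg adjusted values of the exact permutation test were 0.75 or 0.8, and 3 against 3 cannot go below 0.1. The ratio of Camk2g to Camk2a changed by -0.04 when all tested probes of a gene were averaged, and that of Nrgn by -0.40.

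**Figure D4:**
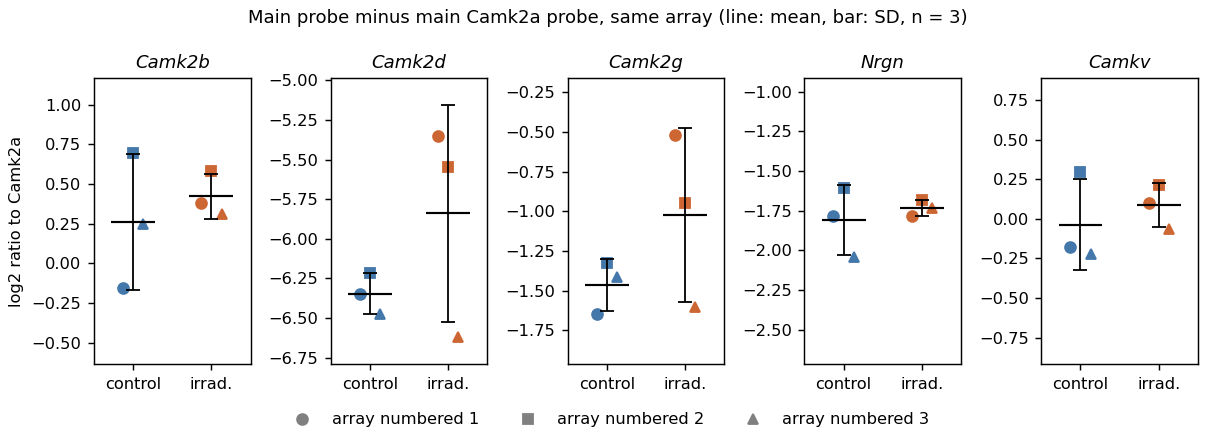
Log2 ratio of each main probe to the Camk2a main probe of the same array (y axis), for 3 control and 3 irradiated arrays; line and bar give mean and SD. Nrgn lies between -2.04 and -1.61 on all 6 arrays, while Camk2d and Camk2g stand higher on irradiated arrays 1 and 2 than on irradiated 3.

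Genes with the pattern most like Camk2a over the 6 arrays were ranked by the root mean square distance between profiles, each centred on its own mean, among 15476 named genes. Nearest to Camk2a were Tiam1, which activates the GTPase Rac1 (distance 0.069), Igfbp3 (0.075), Col22a1 (0.081), Map9 (0.087) and Sema7a (0.094). Nrgn ranked 45 (0.14), Camkv 274 (0.19), Camk2b 1829 (0.27), Camk2g 6829 (0.40) and Camk2d 9661 (0.47). Nearest to Nrgn were Ltbp4 (0.026), Nlgn2, the neuroligin of inhibitory synapses (0.055), Hpca, the calcium sensor hippocalcin (0.061), Cyp2c37 (0.066) and Hmgb1 (0.066). Hpca measured 7.89, 7.56 and 7.53 in controls and 7.03, 6.99 and 7.75 in irradiated cultures, the same layout as Nrgn, while its 3 probes ran from -0.41 to 0.25. Cyp2c37 had a mean level of -5.55 and so came from the dim end of the array. Distances were taken only on the 75th percentile scale, where 98.8% of probes with a mean level over 6 were below 0. After quantile normalisation Camk2a differed by -0.07, Nrgn by -0.16, Camkv by 0.07 and Hpca by 0.06, so not all kept a shared sign.

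The rest of the pathway was read from 75 further genes of calcium signalling, all of them measured. None of their main probes, and none of their 180 tested probes, passed the adjusted threshold. At an unadjusted p under 0.05, 8.89% of the 180 probes were found, against 9.02% of all tested probes. Of the 75 main probes, 58 were below 0, with a median of -0.17, but 34 were below the median of their brightness band. After quantile normalisation 30 of the 75 were below 0, with a median of 0.04.

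Calm2 and Calm3 encode calmodulin, the calcium sensor that opens CaMKII. Calm2 measured 8.17, 7.97 and 7.95 in controls and 7.58, 7.64 and 8.01 in irradiated cultures. Irradiated 3 alone stood within the control range. Calm2 differed by -0.28 and Calm3 by -0.27, with limma adjusted p-values of 0.626 and 0.635. After quantile normalisation they stood at 0.20 and 0.10. The 2 probes of Calm2 ran from -0.28 to 0.25.

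Proteins that bind calmodulin without calcium were represented by Pcp4, at -0.13, and Gap43, the growth cone protein related to neurogranin, at -0.37. After quantile normalisation they stood at 0.16 and -0.08. Camk2n2, an endogenous inhibitor of CaMKII, measured 6.03, 5.76 and 5.40 in controls and 5.05, 5.13 and 5.33 in irradiated cultures. All 3 irradiated values lay below the controls, with control 3 and irradiated 3 close together. It differed by -0.56 (standard error 0.24, unadjusted p 0.046, limma adjusted p 0.520), and by -0.25 after quantile normalisation. Its relative Camk2n1 differed by -0.17, and by 0.04 after quantile normalisation.

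Camk4, the nuclear CaM kinase, differed by 0.07 (0.27 after quantile normalisation), and the 9 genes of the CaM kinase cascade had a median of -0.02, or 0.14 after quantile normalisation, with 5 and 2 below 0. The calcineurin group held subunits of calcineurin, the phosphatase that opposes CaM kinases, and also Rcan1, Rcan2 and Akap5. All 7 genes of the group were below 0 with a median of -0.17, and 2 were below the median of their brightness band. After quantile normalisation 1 of the group was below 0. The catalytic subunit Ppp3ca differed by -0.27 and the regulatory subunit Ppp3r1 by -0.17, and they stood at 0.14 and 0.14 after quantile normalisation. Of the 15 substrates and anchors of CaMKII, 12 were below 0, and 10 were after quantile normalisation. Dlg4, the scaffold PSD-95, differed by -0.54, with 3 tested probes from -0.54 to 0.01.

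The list's main probes with the smallest unadjusted p are given as values, each with a limma adjusted p of 0.520. Ryr1, a calcium release channel of the endoplasmic reticulum, measured 0.43, -0.01 and -0.17 in controls and -0.94, -1.03 and -0.74 in irradiated cultures, a difference of -0.98 (standard error 0.23). All 3 irradiated values lay below the controls. A further tested probe of Ryr1 differed by 0.63, so the gene's probes disagreed in sign. Adcy3, an adenylyl cyclase, differed by 0.99 and Ryr3, another such channel, by 0.59. With normexp correction Adcy3 stood at 0.51 and Ryr3 at 0.54, and with quantile normalisation at 0.92 and 0.60.

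**Figure D5:**
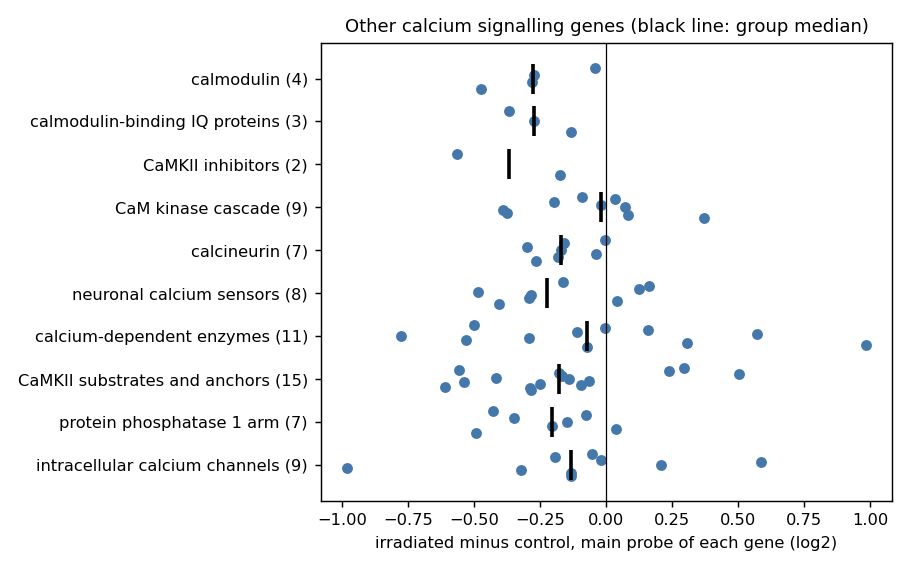
Difference of the main probe of each of 75 further calcium signalling genes (x axis, irradiated minus control, log2), by group with the number of genes; the black line is the group median. Medians of all 10 groups lie below 0 on this scale, 6 of them above 0 after quantile normalisation, and Ryr1 at -0.98 and Adcy3 at 0.99 lie farthest out.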

How the data were processed

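Per the file headers, the authors deposited linear spot intensity values, background-subtracted but not normalised between arrays. The values came from Agilent Feature Extraction 10.7.1.1 (version per the submitters' processing notes). The fit error of multiplicative detrending within the array was 0 on control 1, against 0.013 to 0.038 on the other arrays. Control 1, which stood apart on the first principal component, may thus not have been detrended like the rest. The part of this in the differences was not tested. The authors also deposited a log2 table whose 6 columns share a median of 5.90 and, from its values, are quantile normalised. It runs in the direction of the scanner signal, with a rank correlation of 0.997 for control 1 and at least 0.9999999 for the other arrays. No source used here names its tool. Spots marked as outliers were left out, log2 values of a probe's spots were averaged, and the 75th percentile over probes that are not controls was subtracted; 10 probes with no unmarked spot on some array were dropped. Probes were taken by the gene name in the files. limma 3.58.1 (R 4.3.3) compared the groups over all kept probes without covariates, after tests on simulated data. The number of arrays limits precision. Members and lists were chosen with earlier results of these data known; the text names all members, the 3 list genes with the smallest p in each direction, 11 fixed list genes and the 5 nearest profiles to Camk2a and Nrgn, while Hpca and Cyp2c37 are detailed as chosen after their values were seen. Some genes that this rule selects are left out of the text. Brightness bands were added after seeing the data. Alternatives were normexp correction (offset 50), quantile normalisation, the deposited table, other filters, a replicate block and leaving out arrays.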

Additional observations from a re-analysis of the deposited data

How the results depend on the processing

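No probe of the 6 genes and none of the calcium signalling list passed the adjusted threshold in any setting run. Over all probes 0 were called as reported, 4 with quantile normalisation and 4 with the authors' deposited log2 table. The count of the 6 genes' probes at unadjusted p under 0.05 was 2 (9.02% of all probes), the 2 dim probes that entered through the irradiated arrays. It became 0 with normexp correction (16.9% of all), with only probes above background on all 6 arrays (9.41%) and with 1 probe per gene name (9.13%). Without the filter on dim probes it was 3 of 18 (10.1% of all). With both arrays numbered 1 left out it was 1 (3.74%). With one array left out it was 1 without control 1 (5.61%), irradiated 1 (3.05%) or irradiated 2 (3.09%). It was 2 without control 2 (10.4%) or control 3 (15.7%), but without control 2 the dimmest Camk2a probe took the place of the Camk2d probe. Without irradiated 3 it was 4 (9.56%), where Camk2a and Nrgn joined. Nothing is read from these counts. The median of these probes was 0.01 as reported, -0.16 with normexp correction, -0.32 with 1 probe per gene name and 0.09 relative to brightness bands. Of 222 single-probe values in other settings, 198 kept their direction. Many of these could not turn. The fits without the dim filter, with only probes above background on all 6 arrays and with the replicate block repeat the same differences. Normexp correction turned Camk2g (0.054) and the dimmest tested probes of Camk2a (-0.20), Camk2b (-0.40) and Camk2d (-0.25). For these dim probes the offset alone can turn the sign, so nothing is read from it. The main probes of Camk2b, Camkv and Camk2g turned with quantile normalisation (0.12, 0.068 and 0.24) and with the deposited table (0.12, 0.067 and 0.25). Without both arrays numbered 1, the second Camkv probe stood at 0.054 and the ratio of Camk2b to Camk2a at -0.026. The ratio of Nrgn to Camk2a turned with quantile normalisation (-0.095), with the deposited table (-0.094) and with averaged probes (-0.40), which also turned those of Camk2g (-0.042) and Camkv (-0.29). With one array left out, Camk2g ran from -0.14 to 0.059, the Camk2d main probe from -0.068 to 0.20, its next probes from -0.082 to 0.24 and from -0.037 to 0.24, and the second Camk2a probe from -0.31 to 0.067. The ratio to Camk2a then ran from -0.048 to 0.38 for Camk2b, from -0.038 to 0.18 for Nrgn and from 0.028 to 0.29 for Camkv. The cause of these turns was not tested. Same-numbered arrays correlated at 0.46, 0.33 and 0.086 in their deviations from the group means over the tested probes. Not every array matched its own number best, and the main fit did not take the numbers as pairs. Markers of astrocytes and excitatory neurons did follow the array number in both groups, so the unpaired p-values may leave out a real pairing. The labels do not say whether same-numbered cultures were linked. With the replicate block 0 probes were called, and 3480 had an unadjusted p under 0.05 against 3657. Of the 16 probes, 2 did in both fits. Dim probes are limited by signal over background.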
